A study of Arabidopsis thaliana with 3 samples.

Results

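The genes examined here were 49 MIR genes of Arabidopsis thaliana, which encode the conserved developmental microRNA families miR156, miR157, miR159, miR160, miR164, miR165, miR166, miR167, miR171, miR172, miR319, miR390 and miR396. They were chosen by name, with earlier results of these data known, and all 49 were found among the 326 microRNA genes of the annotation. A gene counted as bound if its window, from 3000 bp upstream of the annotated precursor to 1000 bp beyond it, contained a peak midpoint. By this rule 9 of the 49 genes were bound, each by 1 peak, out of 3552 peaks in all.

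The peaks came from sequential DNA affinity purification followed by sequencing (seq-DAP-seq) of the MADS transcription factor complex SEP3-AG(AP1-I). SEP3, which carried a FLAG tag, and a chimeric AG protein with the I (intervening) domain of AP1, which carried a Myc tag, were made together in vitro and purified through each tag in turn. The complex was then incubated with sheared genomic DNA of Arabidopsis plants grown for 2 weeks, so that the DNA carried no chromatin and represents no particular tissue. The 3 replicates had been combined into 1 list of 400 bp regions against input DNA, with no height, read count or p-value, so that neither the depth behind a peak nor the spread between replicates could be given.

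A plant microRNA is cut from a hairpin in a longer primary transcript and guides an Argonaute protein to messenger RNAs that carry a complementary site. The conserved families act mainly on transcription factors. They set the juvenile to adult transition, the upper and lower sides of leaves, organ boundaries, organ growth and the identity of floral organs, the last of these being the process in which SEP3, AG and AP1 themselves act. MADS proteins bind DNA as dimers at the CArG box, whose canonical form is CC, 6 A or T and GG.

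The mature microRNAs of the 9 bound genes are shown first, because several of these genes encode the same molecule as genes without a peak. They were read from the reference genome at the RefSeq miRNA annotation, 5′ to 3′, with the seed (bases 2 to 8) in capitals.
miR156 of MIR156A, MIR156D and MIR156E: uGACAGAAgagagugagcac
miR157b-5p of MIR157B: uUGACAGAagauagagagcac
miR166 of MIR166D and MIR166G: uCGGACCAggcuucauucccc
miR319b of MIR319B: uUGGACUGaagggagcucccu
miR319c of MIR319C: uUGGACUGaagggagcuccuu
miR390a-5p of MIR390A: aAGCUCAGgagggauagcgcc

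The miR156 sequence was encoded by 6 of the genes, MIR156A to MIR156F, of which 3 were bound. The miR166 sequence was encoded by 7 genes, MIR166A to MIR166G, of which 2 were bound. For miR157, miR319b and miR390a, 1 gene was bound of the 3, 2 and 2 genes that share the sequence. In each of these groups, then, bound and unbound genes give the same mature product. MIR319C differed from MIR319A and MIR319B in the mature sequence but had the same seed. Genes of a family share their target messages as well, and are not independent of each other.

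Across the families, peaks were found at 4 of 12 MIR156 and MIR157 genes, 2 of 9 MIR165 and MIR166 genes, 2 of 3 MIR319 genes and 1 of 2 MIR390 genes. None of the 5 MIR172 genes and none of the 4 MIR167 genes had a peak. The same was true of the 3 genes each of the MIR159, MIR160, MIR164 and MIR171 families and of the 2 MIR396 genes. The 9 peaks thus lay at 4 of the 11 family groups, and 7 groups had none. Those 7 groups have 2 to 5 genes each. That is too few to be read against the bound shares of other MIR genes (10.1%) and of protein-coding genes (18%).

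The 9 bound genes were 18.4% of the 49, with an exact (Clopper-Pearson) 95% interval of 8.76% to 32.0% that covers counting error only. Of the 277 other MIR genes of the annotation, 28 were bound, or 10.1% (95% interval 6.82% to 14.3%). These intervals overlap, and the difference was not tested. Among them were 45 genes of further conserved families, such as those of nutrient and stress responses and of the microRNA pathway itself, and of these 5 were bound, or 11.1% (95% interval 3.71% to 24.1%). Of 27444 protein-coding genes, 4945 were bound, or 18%, in windows whose median length was 6078 bp against 4123 bp for the developmental MIR genes. The share of bound developmental MIR genes was therefore near that of coding genes.

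Per length of DNA, the windows of the 49 genes held 44.8 peaks per Mb, those of the other MIR genes 25.5, those of coding genes 32.6 and the whole genome 29.8. The first of these values rests on 9 peaks in 0.201 Mb. The 3 other MIR genes with the most peaks were MIR5665 and MIR8167D, with 2 peaks each, and MIR5012, whose peak held the highest-scoring binding site among the peaks of the other MIR genes, at 15.6 bits on the scale explained below.

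**Figure D1:**
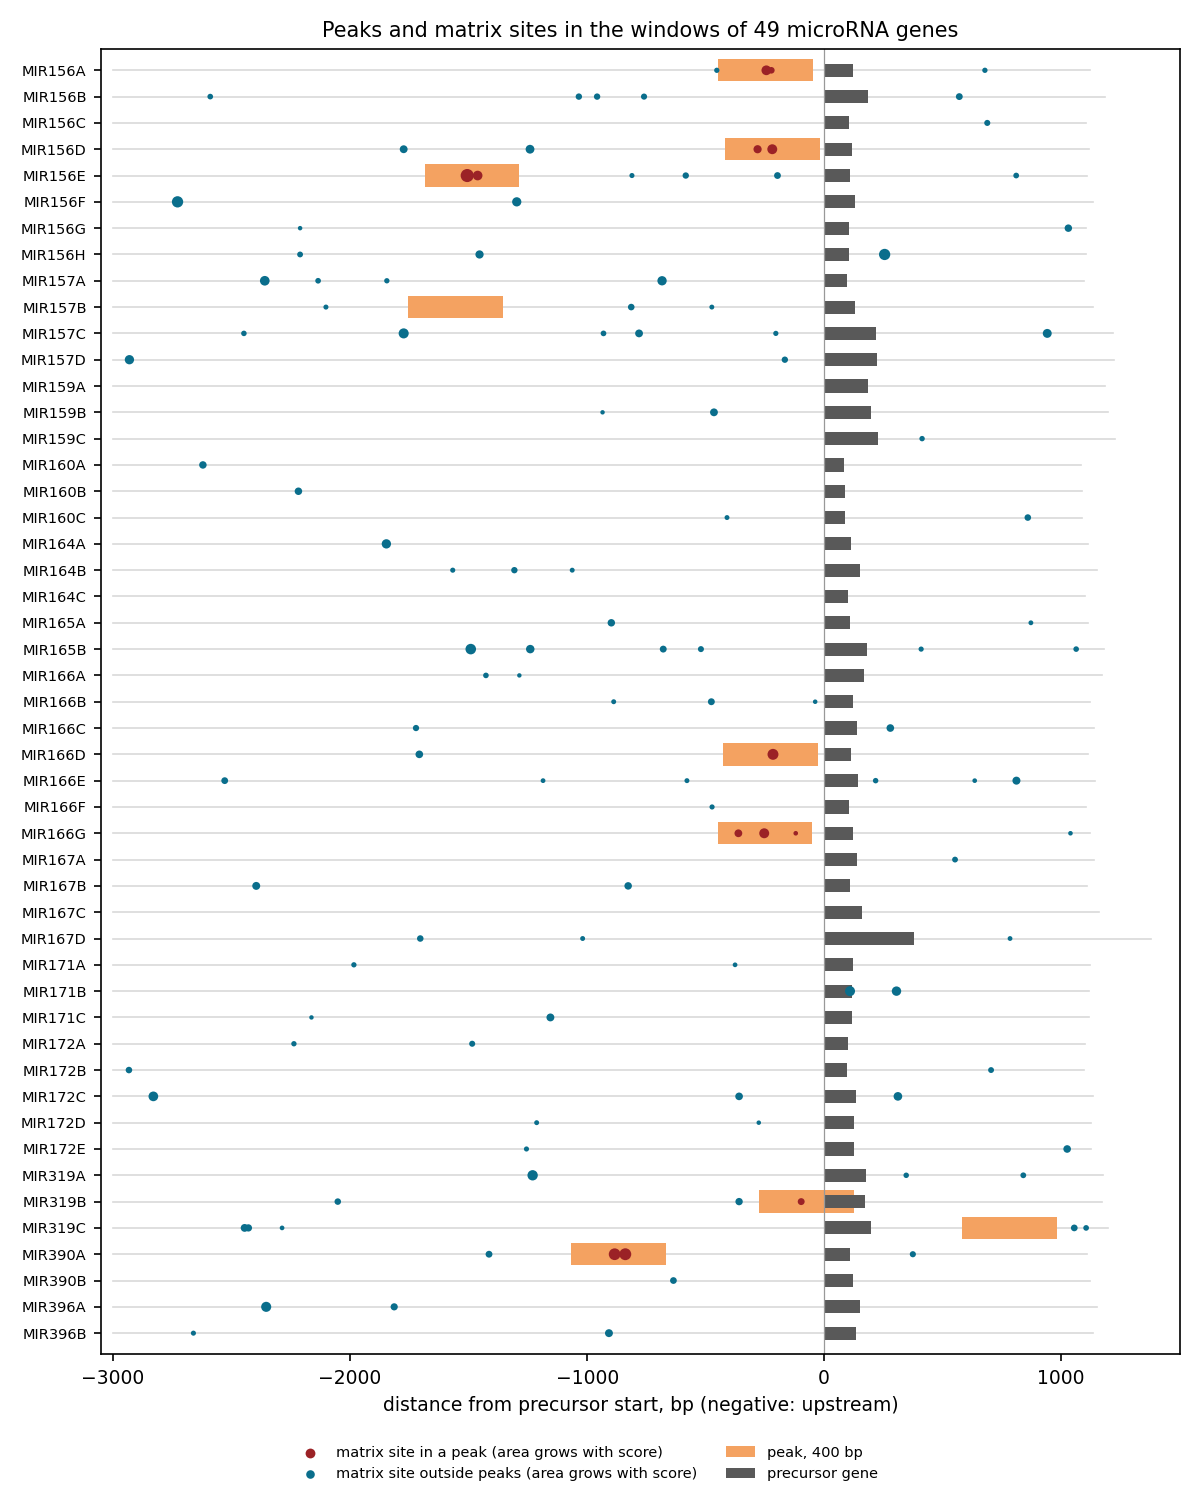
Peaks and predicted binding sites in the windows of the 49 genes, against the distance from the precursor start in bp, with upstream to the left. Orange bars are the 9 peaks of 400 bp, grey bars the precursors, and dots the sites of the matrix, red in a peak and blue outside, with an area that grows with the score; 5 of the 9 peaks have their midpoint within 300 bp upstream of the precursor.

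The peaks of MIR156A, MIR156D, MIR166D, MIR166G and MIR319B had their midpoints close upstream of the hairpin, and that of MIR319B overlapped it. The midpoints were 247, 217, 227, 250 and 74 bp upstream of the precursor start. The peak of MIR390A was 866 bp upstream, and those of MIR156E and MIR157B were 1486 and 1554 bp upstream. Only the peak of MIR319C lay downstream, 783 bp past the start. In all, 8 of the 9 peaks were upstream and their median distance was 247 bp upstream of the start.

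With a stretch of 300 bp upstream of the start, which was chosen after these positions were seen, 5 of the 49 developmental MIR genes were bound, or 10.2% (exact 95% interval 3.40% to 22.2%). None of the 277 other MIR genes had a peak midpoint there (0%), and 567 of the coding genes had (2.07%). As a share of peaks, 5 of 9 (55.6%) fell in this stretch at the developmental MIR genes. The corresponding values were 0 of 30 pairs of a peak and a gene for other MIR genes and 567 of 5581 pairs (10.2%) for coding genes. A shorter window, from 1000 bp upstream to the precursor end, showed the same order. In it 6 of 49 genes were bound (12.2%, exact 95% interval 4.63% to 24.8%), 1.81% of the other MIR genes and 9.91% of coding genes. This window contains the 300 bp stretch, so the same peaks are counted again. At coding genes it runs through the whole gene and is longer. The start of an annotated MIR gene is the end of a hairpin and that of a coding gene is a transcript start, so that these distances are not measured from the same feature. None of these differences was tested.

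**Figure D2:**
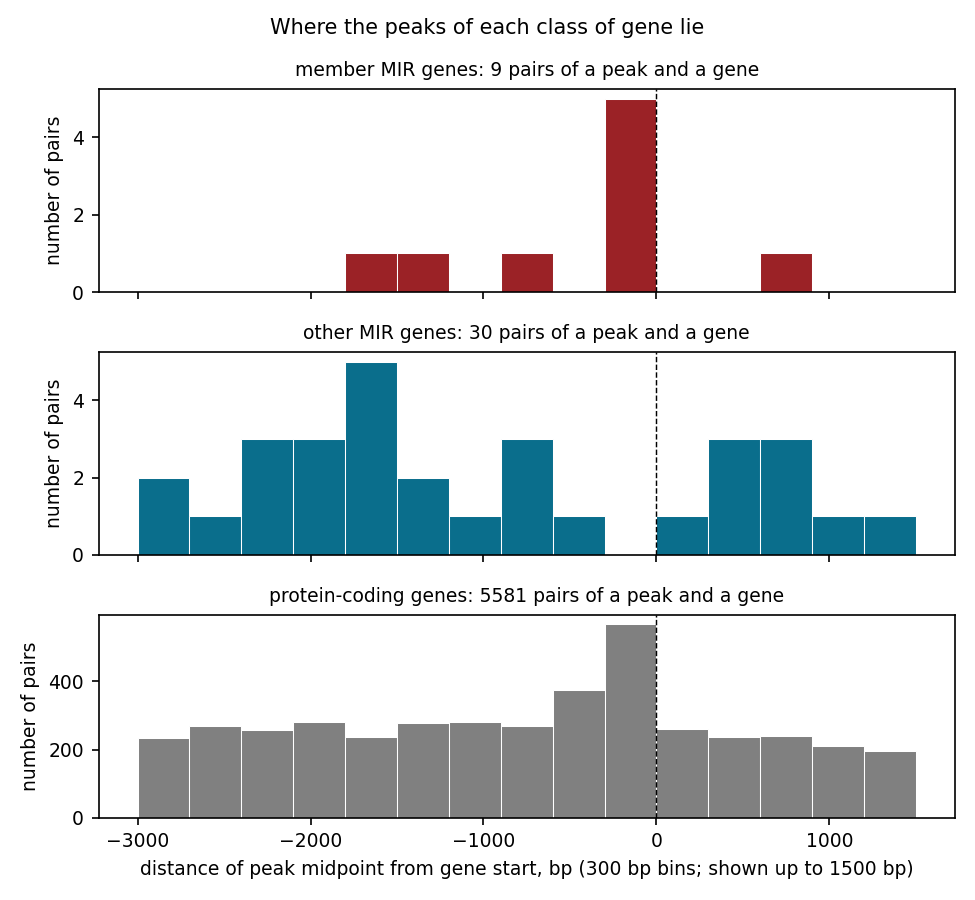
Number of pairs of a peak and a gene against the distance of the peak midpoint from the gene start in bp, in bins of 300 bp, for the developmental MIR genes (top), other MIR genes (middle) and protein-coding genes (bottom, cut on the right). The bin directly upstream of the start holds 5 of 9 pairs in the top panel, none of 30 in the middle and 567 of 5581 at the bottom.

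To see what sequence lay under these peaks, a 16 bp palindromic matrix was fitted to the peaks of the other chromosomes, and a site was a match above 7.79 bits, a level reached once in 2000 bp of the genome. Of the 9 peaks, 7 held at least 1 such site. The 76 bases centred on the best site of these 7 peaks are shown because they hold the closest match to the matrix in each peak. Each is written 5′ to 3′ on the strand of the gene, from the TAIR10 genome, with the 10 bp core in capitals.
MIR156A (chr2:10676779-10676854, minus strand): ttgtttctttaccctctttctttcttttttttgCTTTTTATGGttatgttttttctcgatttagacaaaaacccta
MIR156D (chr5:3456930-3457005, minus strand): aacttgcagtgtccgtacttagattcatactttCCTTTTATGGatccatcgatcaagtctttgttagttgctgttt
MIR156E (chr5:3865663-3865738, plus strand): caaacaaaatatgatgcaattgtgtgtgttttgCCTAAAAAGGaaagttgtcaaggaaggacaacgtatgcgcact
MIR166D (chr5:2840368-2840443, plus strand): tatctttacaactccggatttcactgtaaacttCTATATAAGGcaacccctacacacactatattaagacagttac
MIR166G (chr5:25504507-25504582, plus strand): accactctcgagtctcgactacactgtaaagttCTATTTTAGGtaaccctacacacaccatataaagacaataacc
MIR319B (chr5:16660699-16660774, minus strand): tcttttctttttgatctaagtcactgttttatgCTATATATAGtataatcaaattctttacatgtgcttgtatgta
MIR390A (chr2:16061077-16061152, plus strand): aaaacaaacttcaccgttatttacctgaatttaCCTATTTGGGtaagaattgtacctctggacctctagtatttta

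Among these cores, MIR156D and MIR156E had the canonical CArG box with no mismatch. MIR156A, MIR166D, MIR166G and MIR390A had 1 mismatch, and MIR319B had 2. At MIR157B and MIR319C the best match scored 6.82 and 6.72 bits, below the threshold for a site, although a box with 1 mismatch was present in each peak.

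The best score of the 9 peaks ranged from 6.72 to 14.8 bits with a median of 11.4 bits (SD 2.78). The median over all 3552 peaks was 10.7 bits (SD 2.77) and over the 27 peaks of other MIR genes 10.6 bits (SD 2.68). The median of the developmental MIR peaks differed from that of all peaks by less than 1 SD. This SD is the spread of single peaks, and the difference was not tested. All peaks together ranged from 0.449 to 18.3 bits. MIR156E (14.8 bits), MIR390A (13.4 bits) and MIR166D (12.4 bits) scored above 93.2%, 81.6% and 71.1% of all peaks. MIR166G (11.5 bits), MIR156D (11.4 bits) and MIR156A (11.3 bits) were near the middle, above 59.4%, 59.1% and 57.1% of peaks. MIR319B (9.11 bits) stood at 30.3%, MIR157B at 8.42% and MIR319C at 7.91%.

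**Figure D3:**
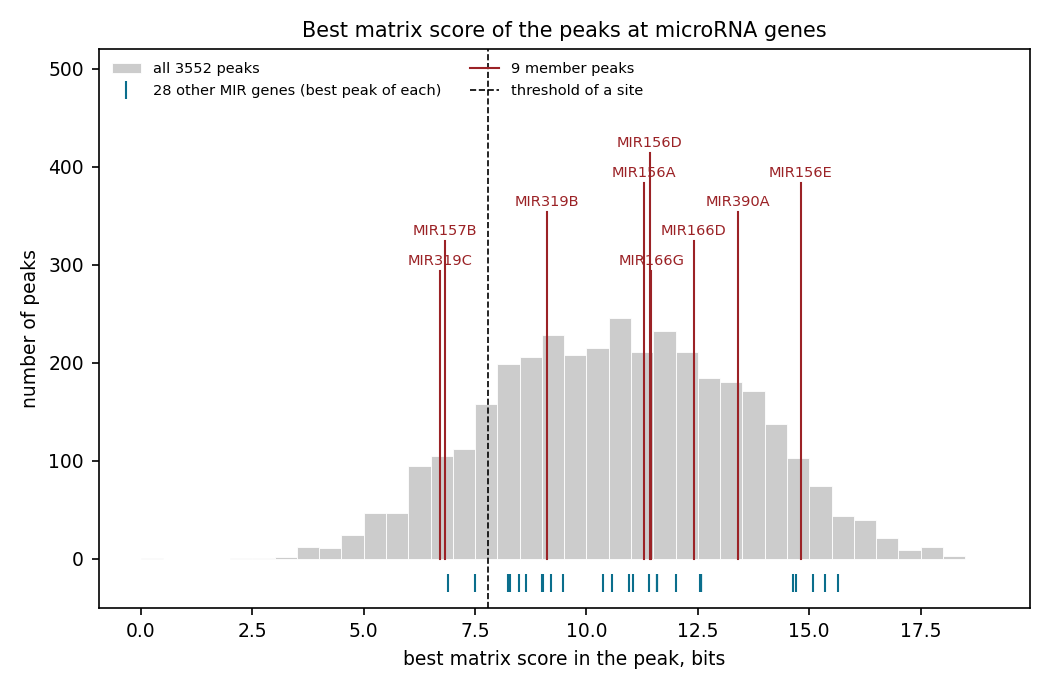
Best matrix score in the peak, in bits, for all 3552 peaks (grey histogram, number of peaks on the vertical axis), for the 9 developmental MIR peaks (red lines with names, whose height has no meaning) and for 28 other MIR genes (blue ticks). The red lines run from 6.72 bits at MIR319C to 14.8 bits at MIR156E, and those of MIR157B and MIR319C lie left of the site threshold of 7.79 bits (dashed).

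By form of the box, 2 of the 9 peaks held a canonical CArG box (22.2%, exact 95% interval 2.81% to 60.0%), against 18.5% of the peaks of other MIR genes and 16% of all peaks. With C or T at the second and A or G at the ninth position, the counts were 6 of 9 (66.7%), 44.4% and 56.1%. With up to 1 mismatch they were 8 of 9 (88.9%), 59.3% and 80%. The median GC content was 32.5% in the developmental MIR peaks, 31.75% in those of other MIR genes and 32.5% in all. For each form of the box, the interval at the 9 peaks included the share in all peaks.

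At least 2 sites were found in 5 of the 9 peaks (55.6%, exact 95% interval 21.2% to 86.3%), against 37% of the peaks of other MIR genes and 30.3% of all peaks, a difference that was not tested. They are of interest because MADS proteins can also bind as tetramers to a pair of boxes. The gap between the inner edges of neighbouring cores was 11 bp at MIR156A, 34 bp at MIR156E, 35 bp at MIR390A and 52 bp at MIR156D. Some of these sites were poor CArG boxes. The weaker core had 4 mismatches at MIR156A (8.93 bits) and 2 at MIR156D (9.99 bits). MIR166G had 3 sites, 99 and 123 bp apart. The pairs of MIR156E and MIR390A held the strongest sites and had nearly the same gap. They are shown from core to core, with both cores in capitals, on the plus strand, which is that of both genes.
MIR156E pair (chr5:3865696-3865749): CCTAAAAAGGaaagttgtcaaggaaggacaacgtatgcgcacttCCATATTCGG
MIR390A pair (chr2:16061065-16061119): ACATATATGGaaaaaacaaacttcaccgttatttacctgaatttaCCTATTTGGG

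The MIR156E pair combined a canonical box of 14.8 bits with a box of 11.2 bits that had 1 mismatch. In the MIR390A pair neither core was canonical, and the scores were 13.2 and 13.4 bits.

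The miR156 and miR157 genes keep plants juvenile by repressing SPL transcription factors, and MIR156A is among the main sources of miR156 in seedlings. The MIR156A peak (chr2:10676620-10677019) lay in an intron of the annotated primary transcript, which starts 491 bp upstream of the hairpin. No coding gene had this peak in its window, and the nearest coding start, that of the protein kinase gene CIPK16, was 3928 bp away. The MIR156D peak (chr5:3456766-3457165) lay in an intron of the coding gene AT5G10946 on the same strand, and also in the window of ASG2. Its position can therefore be assigned to more than MIR156D.

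The MIR156E peak (chr5:3865521-3865920) lay between genes, 1897 bp upstream of the coding gene AT5G11970 and in the window of that gene too. The MIR157B peak (chr1:24919332-24919731) lay between genes with no coding gene within reach of the rule. MIR157B and MIR157A are neighbours on chromosome 1, and MIR157A was just outside the rule. Its nearest upstream peak was 3071 bp upstream, 71 bp past the edge of the window, and another lay 1573 bp downstream of its start, 476 bp past the edge. The latter scored 16.3 bits, above every peak assigned to the 49 genes.

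The miR165 and miR166 genes restrict HD-ZIP III transcription factors, which specify the upper side of leaves and maintain meristems. The MIR166D peak (chr5:2840195-2840594) and the MIR166G peak (chr5:25504348-25504747) both lay between genes, 227 and 250 bp upstream of the hairpin. The first was also in the window of the coding gene RUG1, and the second in that of KPL. MIR166C lies next to MIR166D, and the MIR166D peak was 1760 bp past the start of MIR166C, 622 bp beyond its window.

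The sequences around the MIR166D and MIR166G sites resembled each other. A local alignment of the 76 bases of MIR166D with the 1000 bp upstream of MIR166G matched 43 of 50 aligned positions (86%). It placed the MIR166D core, CTATATAAGG at 216 bp upstream of the hairpin, on the MIR166G core, CTATTTTAGG at 253 bp upstream. The alignment scored 63, where the next best of the 8 family members, MIR166E, scored 21 and the highest of 40 genes from other families scored 23. From the side of MIR166G, the score with MIR166D was 65, the next best in the family was MIR166A at 20, and the highest with other families was 25. The stretch around the site was thus shared by the 2 bound genes of the family, and no unbound member of the family scored above the genes of other families.

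The same comparison, again with the 1000 bp upstream of each gene, gave no such pair elsewhere. The MIR156A site aligned best in its family with the region upstream of unbound MIR156C, at a score of 34, and with MIR156D at 23. The alignment with MIR156C matched 44 of 60 positions and ran across the core, but with a gap inside the core. The highest score of the MIR156A site with other families was 36. For MIR156D, MIR156E, MIR157B, MIR319B, MIR319C and MIR390A, the best family score was also below the highest score with other families. The sites of MIR156E and MIR157B were 1506 and 1518 bp upstream, and that of MIR319C was 788 bp past the start. For these genes a like site at the same place in a family member lies outside the 1000 bp compared and could not be found. The cores of MIR156A and MIR156D, CTTTTTATGG and CCTTTTATGG, were alike and at nearly the same distance from the hairpin (244 and 219 bp). No ungapped stretch of their alignment, from either side, held the whole core.

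The miR319 genes repress TCP transcription factors that limit the growth of leaves and petals. The MIR319B peak (chr5:16660514-16660913) had its midpoint in an exon of the annotated primary transcript and overlapped the hairpin, and its site was 97 bp upstream of the hairpin. MIR319A, which encodes the same mature microRNA, had no peak in its window, and its nearest was 8935 bp upstream. The MIR319C peak (chr2:17030284-17030683) was the only peak of the 9 whose nearest gene start was not that of the MIR gene, but that of the long non-coding RNA gene AT2G09195, and it also lay in the window of ATG18C. Its midpoint was 415 bp inside the edge of the window, closer than for any other member.

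MIR390A gives rise to miR390, which loads AGO7 and triggers the TAS3 small RNAs that restrain ARF2, ARF3 and ARF4. Its peak (chr2:16060888-16061287) lay between genes, with no coding gene within reach of the rule, and was the most AT-rich of the 9, with a GC content of 26.5%. MIR390B, which encodes the same miR390a-5p sequence, had no peak, and the best site in its window was 636 bp upstream and weaker than that of MIR390A.

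Sequence matches were not confined to the bound genes. Of the 40 genes with no peak, 37 had at least 1 site in their window, and 8 had a canonical CArG box, against 9 and 3 of the 9 bound genes. The best site of the window had a median score of 11.4 bits at the bound genes (8.92 to 14.8 bits) and 9.48 bits at the unbound genes (7.10 to 12.8 bits). The ranges overlapped, and 25 of the 40 unbound genes reached the lowest best score of a bound gene, while 7 reached the median. At 6 of the 9 bound genes the best site of the window was in the peak.

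The strongest sites without a peak were at MIR156F (12.8 bits, 2728 bp upstream), MIR156H (12.8 bits, 255 bp past the start), MIR165B (1491 bp upstream) and MIR319A (11.8 bits, 1230 bp upstream). A canonical box scoring 11.5 bits overlapped the end of the MIR171B hairpin region (chr1:3961347-3961362). It is shown on the plus strand as an example of a canonical core in naked DNA that had no peak, with the 10 bp core in capitals.
MIR171B: ttgCCATTTTTGGttt

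Over the genome, peaks covered 4.37% of the 43180 sites scoring from 7.79 to 10 bits, 9.73% of sites from 10 to 12 bits and 23.2% from 12 to 14 bits. They covered 47.0% of the 775 sites from 14 to 16 bits and 63.4% of the 134 above that. For a site at least as strong as that of MIR156F, 37.8% were in a peak, and for MIR156E 59.5%. Most genome sites of the strength seen at the unbound genes therefore had no peak either.

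**Figure D4:**
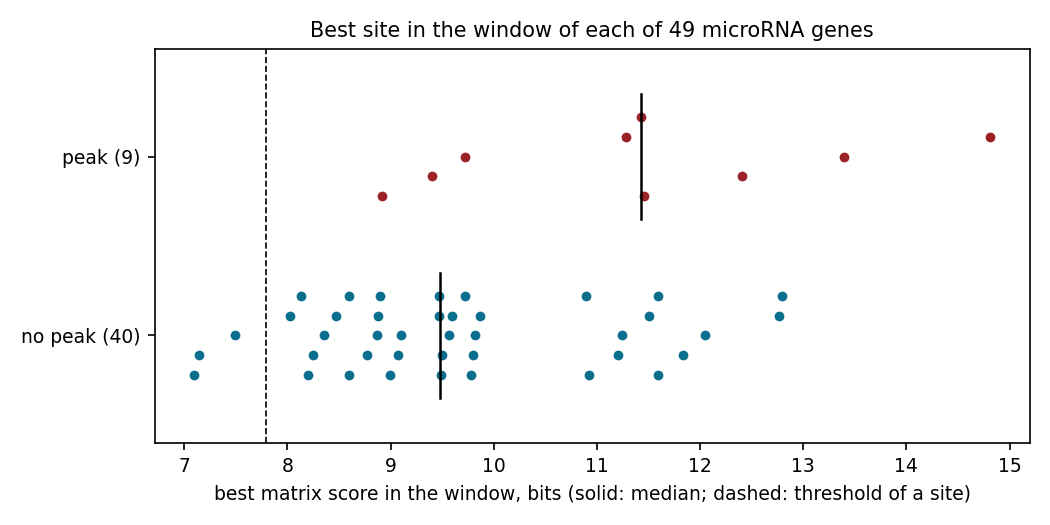
Best matrix score in the window, in bits, of each of the 49 genes, with the 9 bound genes above and the 40 unbound genes below, the median as a solid line and the site threshold of 7.79 bits as a dashed line (vertical offsets separate the points). The medians are 11.4 and 9.48 bits and the ranges overlap.

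The genes that these microRNAs act on were examined with the same window. Of 57 target genes in 11 lists, 18 had a peak (31.6%), beside 18% of protein-coding genes. In the shorter window that begins 1000 bp upstream, 8 of the 57 had a peak (14%), beside 9.91% of protein-coding genes. The lists, like the MIR genes, were chosen with earlier results of these data known. The lists were not tested against other genes, and they name developmental transcription factors, a class to which other regulators not listed here also belong. Bound targets were found in 3 of the 4 family groups with a bound MIR gene and in 4 of the 7 without.

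The list with the highest share of bound genes was that of miR172, which represses AP2-like floral and flowering-time regulators. None of the 5 MIR172 genes had a peak, and the nearest to any of them was 4791 bp past the start of MIR172E. Among the targets, 5 of 6 were bound, all but TOE2, and 2 of 6 in the shorter window. Over all protein-coding genes these shares were 18% and 9.91%. The list has only 6 genes and was picked as the highest of 11, and the difference was not tested. SNZ had a peak 792 bp upstream with a score of 15.5 bits, in an exon of the coding gene AT2G39260 outside its coding sequence. SMZ had peaks 1101 and 2667 bp upstream with 11.8 and 16.5 bits. TOE3 had a peak 1349 bp upstream with 14.9 bits, over exons of the long non-coding RNA genes AT5G09835 and AT5G09825. TOE1 had peaks in an intron, 911 bp past the start, and 3506 bp past the start. The peak of AP2, the A-class floral identity gene, was 1648 bp upstream and had a best score of only 5.03 bits, below the threshold for a site.

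For miR396, neither MIR gene was bound, and 4 of 7 GRF growth regulators were, beside 18% of protein-coding genes. GRF2 had peaks 198 and 2769 bp upstream, GRF4 458 and 770 bp upstream, GRF9 2688 bp upstream and GRF1 3556 bp past the start. The GRF9 peak lay in an exon of FLA8 outside its coding sequence, and the GRF1 peak in an intron of bZIP6. Of the miR164 targets, the organ boundary gene CUC2 had a peak 2865 bp past the start, beyond its end, and NAC080 1827 bp upstream, while the 3 MIR164 genes had none. Of the miR171 targets, the meristem regulator HAM1 had a peak 298 bp upstream.

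For miR165 and miR166, 2 of 9 MIR genes were bound, a share near the 18% of coding genes, and none of the 5 HD-ZIP III genes PHB, PHV, REV, CNA and ATHB8, too few to be read against that share. For miR156 and miR157, 2 of 11 SPL genes had a peak. That of SPL2 was 356 bp past the start, in an untranslated part of its exon. That of SPL11 was 1974 bp upstream, in an intron of the coding gene AT1G27350. For miR319, TCP3 had a peak 2503 bp upstream and TCP24 had peaks 66 bp past the start and 619 bp upstream. For miR390, ARF4 had 3 peaks, 57 bp upstream and 532 and 1064 bp past the start, and ARF3 1 peak 2421 bp upstream, while TAS3 and ARF2 had none. No target of miR159, miR160 or miR167 had a peak, and no MIR gene of these families did.

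Of 10 genes that make or use microRNAs, 2 had a peak, a share near the 18% of protein-coding genes. AGO1 had a peak 6800 bp past the start, in an intron near the gene's end. AGO10, which binds miR166, had 1 at 1857 bp upstream. DCL1, HYL1, SE, HEN1, HST, AGO7, ABH1 and SDN1 had none.

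**Figure D5:**
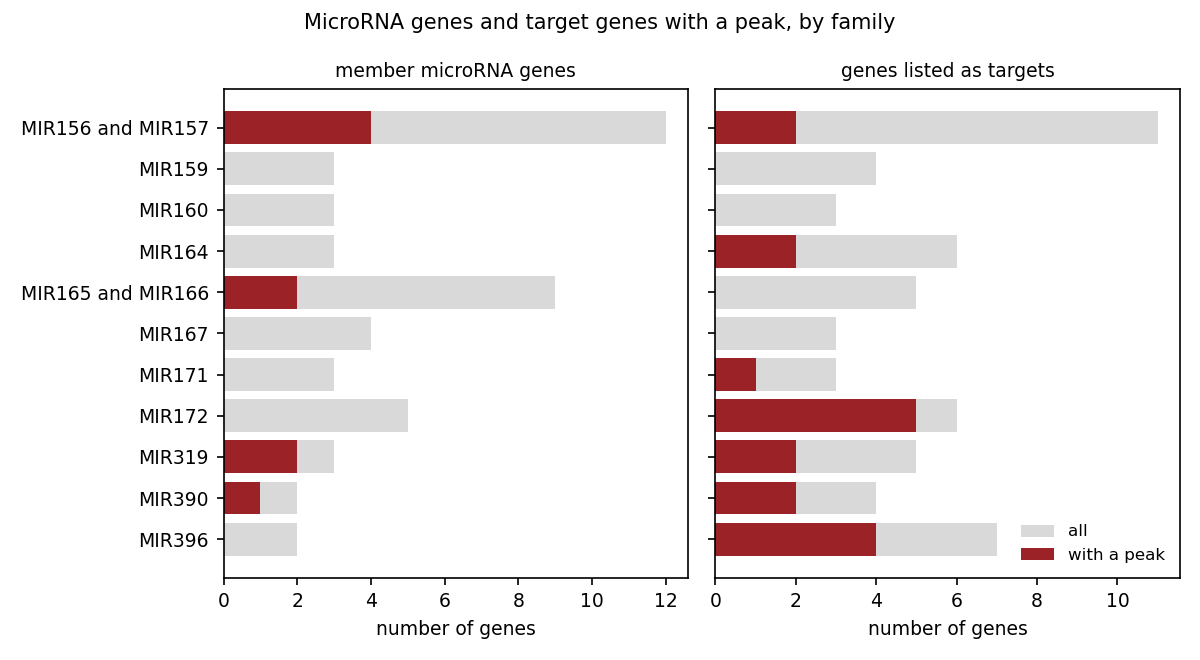
Number of genes (horizontal axis) for each microRNA family, as the MIR genes examined (left) and the listed target genes (right), with all genes in grey and those with a peak in red. The MIR172 genes have no peak and 5 of their 6 targets do, and 2 of 9 MIR165 and MIR166 genes have a peak and none of their 5 targets does. Over all protein-coding genes 18% have a peak, and differences between these small groups were not tested.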

How the data were processed

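Seq-DAP-seq of SEP3-AG(AP1-I) was done in 3 replicates on genomic DNA. The authors trimmed the reads, mapped them to TAIR10 without organelle genomes, removed duplicates, called peaks against input DNA, combined the replicates with MSPC and set every peak to 400 bp around its summit. Bowtie2, SAMtools and MACS2 are named in the submitters' processing notes; no version is given in the sources used here. Only positions are in the deposited list, with no measured unit, and the stringency of calling and joining sets which sites appear in it. Peaks of SEP3-AG and binding intensities were not analysed here.

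Coordinates count from 1. Genes, miRNAs and sequences came from the NCBI RefSeq annotation and sequence of TAIR10.1, whose nuclear chromosomes have the lengths of TAIR10. All 49 MIR genes and 67 target and pathway genes matched. For the peaks of each chromosome, the matrix was fitted to the peaks of the other chromosomes with 30 rounds of expectation maximisation that allowed at most 1 site per peak and began from a CArG box with TT before and AA after it, and scores are log2 ratios to base composition. On 1000 simulated sequences the matrix step recovered the planted base shares to within 5.23 percentage points. The planted matrix differed from the starting one at only a few positions, so this checks the fitting step and not the search for an unlike motif. Local alignments used 2 for a match, -3 for a mismatch, -5 to open and -2 to extend a gap.

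All genes with a peak among the members, targets and pathway genes were named, and of other MIR genes the 3 with the most peaks, with ties decided by score. The members and lists were chosen with earlier results of these data known. No test across genes was made. Intervals are exact binomial ones. Alternatives were other windows, gene bounds, comparison sets, forms of the box, matrices and site thresholds. Python 3.11.15, numpy 2.4.6, scipy 1.17.1, Biopython 1.88 and matplotlib 3.10.9 were used.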

Additional observations from a re-analysis of the deposited data

How the results depend on the processing

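The number of bound developmental MIR genes was 9. It was 5 within 300 bp upstream of the start, a stretch chosen after seeing the data in which 0 of the other MIR genes were bound, and stayed within 1.5 times of 9 under the other alternatives. It was 6 from 1000 bp upstream to the precursor end, without MIR156E, MIR157B and MIR319C. It was 11 with 5000 bp upstream, adding MIR157A and MIR171C, and 12 with 3000 bp on both sides, adding MIR157A, MIR159B and MIR166C. It was 10 when any base of the peak counted, adding MIR157A, and 9 with the nearest gene start only, where MIR157A replaced MIR319C. The bounds of the mature miRNAs, and of the primary transcript for the 16 genes that have them annotated, an alternative chosen after seeing the data, also gave 9. The count of the other MIR genes moved more, from 28 to 5 in the short window, 46 with 3000 bp on both sides and 13 with the nearest start only, and the cause was not tested. Target genes with a peak went from 18 to 8 in the short window, which is part of the long one. Peaks with a CArG box rose from 2 to 8 with 1 mismatch allowed and to 6 with the weaker form of the box, which both take in the canonical form. The other alternatives left their values close, with a median best score of 11.4 bits from the matrix of all chromosomes and 9.90 bits from the core alone. No replicate could be left out, since the list combines the 3 replicates. No paired analysis was possible because the list holds no values per replicate. With 9 peaks, the limits are those of counting, and a peak that lies in the windows of several genes cannot be assigned between them.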
